A study of Mus musculus with 24 samples.

Results

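Interferon beta (Ifnb1), the chains of the type I interferon receptor (Ifnar1, Ifnar2) and of the interferon gamma receptor (Ifngr1, Ifngr2), the Janus kinases that these receptors carry (Jak1, Jak2, Tyk2) and a pair of brakes on the signal (Socs1, Usp18) are 10 of the 24411 genes measured. They were chosen by name, to ask which glial cell makes interferon and which can sense it. Interferon beta binds Ifnar1 and Ifnar2, which carry Tyk2 and Jak1, and interferon gamma binds Ifngr1 and Ifngr2, which carry Jak1 and Jak2. The kinases activate transcription factors, among them Stat2, which acts with Irf9 to switch on interferon-stimulated genes, and Socs1 and Usp18 then damp the signal at the kinases and at Ifnar2. In the brain both microglia and astrocytes can answer interferon, and a lasting type I interferon response there is known from viral infection and from inherited interferonopathies.

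The study profiled purified mouse glia by bulk RNA-seq to ask whether the SOD1G93A transgene alters astrocytes and microglia at rest and after activation. SOD1G93A is a mutant human SOD1, known from familial amyotrophic lateral sclerosis, carried by every cell of these mice and bred onto C57BL/6J. Astrocytes came from forebrain at postnatal day 5, an age the methods give for WT mice, and were freed of CD45, endothelial and O4 positive cells before capture by HepaCAM, while microglia came from whole brains at postnatal days 7 to 10 and were captured by Cd11b. Both were kept without serum, astrocytes with HBEGF and microglia with TGF-β2 and IL-34, so that age, brain region, isolation and medium cannot be told apart from cell type. There were 7 conditions of 3 libraries each. Quiescent astrocytes of WT and of SOD1G93A mice received PBS, and activated astrocytes of both genotypes received 3 ng/mL IL-1α, 30 ng/mL TNFα and 400 ng/mL C1q. Quiescent WT microglia received PBS, and LPS microglia of WT and SOD1G93A mice received 50 ng/mL LPS, a bacterial product sensed by Toll-like receptor 4. The 3 libraries of quiescent SOD1G93A microglia were not analysed here. These are cultures of cells from pups, whereas the mice fall ill as adults, and how long the agents were left on is not stated.

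The shallowest library held 2016139 reads on genes, the deepest 11570122 and the median library 5098168. Levels are given in RPM, which is a gene's share of the reads on genes times 1000000, as mean ± SD of 3 libraries unless each library is given. A gene is called where limma gave an adjusted p under 0.001, over all genes tested, and a change of more than 2-fold. Genes with a mean normalized count under 10 in a comparison were not tested. Nothing in the labels says that replicates come from separate cultures or animals, so the p-values measure the spread between these libraries. In all, 4 libraries stood apart from their replicates in a chi-square per degree of freedom over all genes. WT LPS microglia replicate 1 gave 14 and 12.8 against its replicates, which gave 1.63 against each other, and SOD1G93A LPS microglia replicate 3 gave 15.7 and 20.3, where the other pair gave 2.32. WT quiescent astrocytes replicate 3 gave 8.97 and 6.5, where the other pair gave 2.03, and SOD1G93A quiescent astrocytes replicate 1 gave 6.47 and 9.87, where the other pair gave 2.78. These are the deepest libraries of their conditions, and a chi-square grows with depth. By Pearson correlation of log2(RPM + 1) neither stood apart: WT replicates 2 and 3 (0.9948) and SOD1G93A replicates 1 and 2 (0.9968) were the most alike pairs. The LPS libraries stood apart by correlation too, at 0.9942 against 0.9959 in WT and at most 0.9923 against 0.9973 in SOD1G93A cells. WT LPS microglia replicate 1 is also the deepest of its condition (8121620 reads), so depth enters its chi-square as well. Pairs of the remaining conditions ran from 1.48 to 2.45.

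Markers of the labelled cell type led in each culture, and markers of other cells were present. Astrocyte markers summed to 4821 to 7014 RPM in the 12 astrocyte libraries, with the glutamate transporter Slc1a3 the most abundant, and to 147 to 251 RPM in the 9 microglia libraries. Microglia markers summed to 10139, 10551 and 10035 RPM in WT quiescent microglia and to 149.8 to 353 RPM in astrocytes, 1.46% to 3.45% of the quiescent microglia level, with all 10 markers detected. Oligodendrocyte lineage markers summed to 2778 to 3421 RPM in quiescent astrocytes, mostly Olig1, and to 1317 to 1359 RPM in quiescent microglia, mostly Cspg4 (1229), while Mog, a marker of mature oligodendrocytes, stood at 3 reads or fewer in every library. Neuronal markers summed to 751 to 994 RPM in quiescent astrocytes, nearly all Map2. Endothelial markers summed to 6.61 to 13.4 RPM in quiescent astrocytes, 111 to 153 RPM in activated astrocytes and 24.7 to 75.3 RPM in microglia, mostly Flt1 or Kdr, with Cldn5 at 0 throughout. Monocyte and neutrophil markers summed to 0 to 1.02 RPM in astrocytes, 2.26 to 4.47 RPM in quiescent microglia and 8.41 to 16.7 RPM in LPS microglia, where Ccr2 led and Ly6g was not measured.

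RNA for interferon beta itself was nearly absent from both cell types at the time of sampling, which is not stated. A rise at another time could not be seen. Ifnb1 had 0 reads in each of the 12 astrocyte libraries, out of 62334214 reads, which allows a level of up to 0.0481 RPM. In microglia it had 6 reads among 59072455. The reads were 1, 0 and 0 in WT quiescent microglia, 0, 0 and 1 in WT LPS microglia and 0, 3 and 1 in SOD1G93A LPS microglia. All 3 microglial conditions overlapped and held libraries at 0. Pooled by condition the levels were 0.0509 RPM (95% Poisson interval 0.00129 to 0.284), 0.0559 RPM (0.00141 to 0.311) and 0.186 RPM (0.0506 to 0.476). These intervals overlap, which is not a test of a difference, and they pool reads over libraries. Ifnb1 was too scarce to test in any of the 5 comparisons. Whether its level differs between conditions or cell types was therefore not tested. Intervals and floors cover counting error only.

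The other interferons were as scarce. Of 20 further ligand genes, which cover the interferon alpha family, Ifne, Ifnk, Ifnz, interferon gamma (Ifng) and the interferon lambdas, 19 had no read in any of the 21 libraries. Ifnz, a gene of the type I cluster, had 9 reads, all in astrocytes and at most 2 per library. They fell as 2, 1 and 1 in SOD1G93A quiescent, 1, 2 and 0 in WT activated and 0, 1 and 1 in SOD1G93A activated astrocytes. None of the 20 ligands was tested in any comparison. In these libraries RNA for an interferon was therefore at or under the floor of 3 reads in every library.

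**Figure D1:**
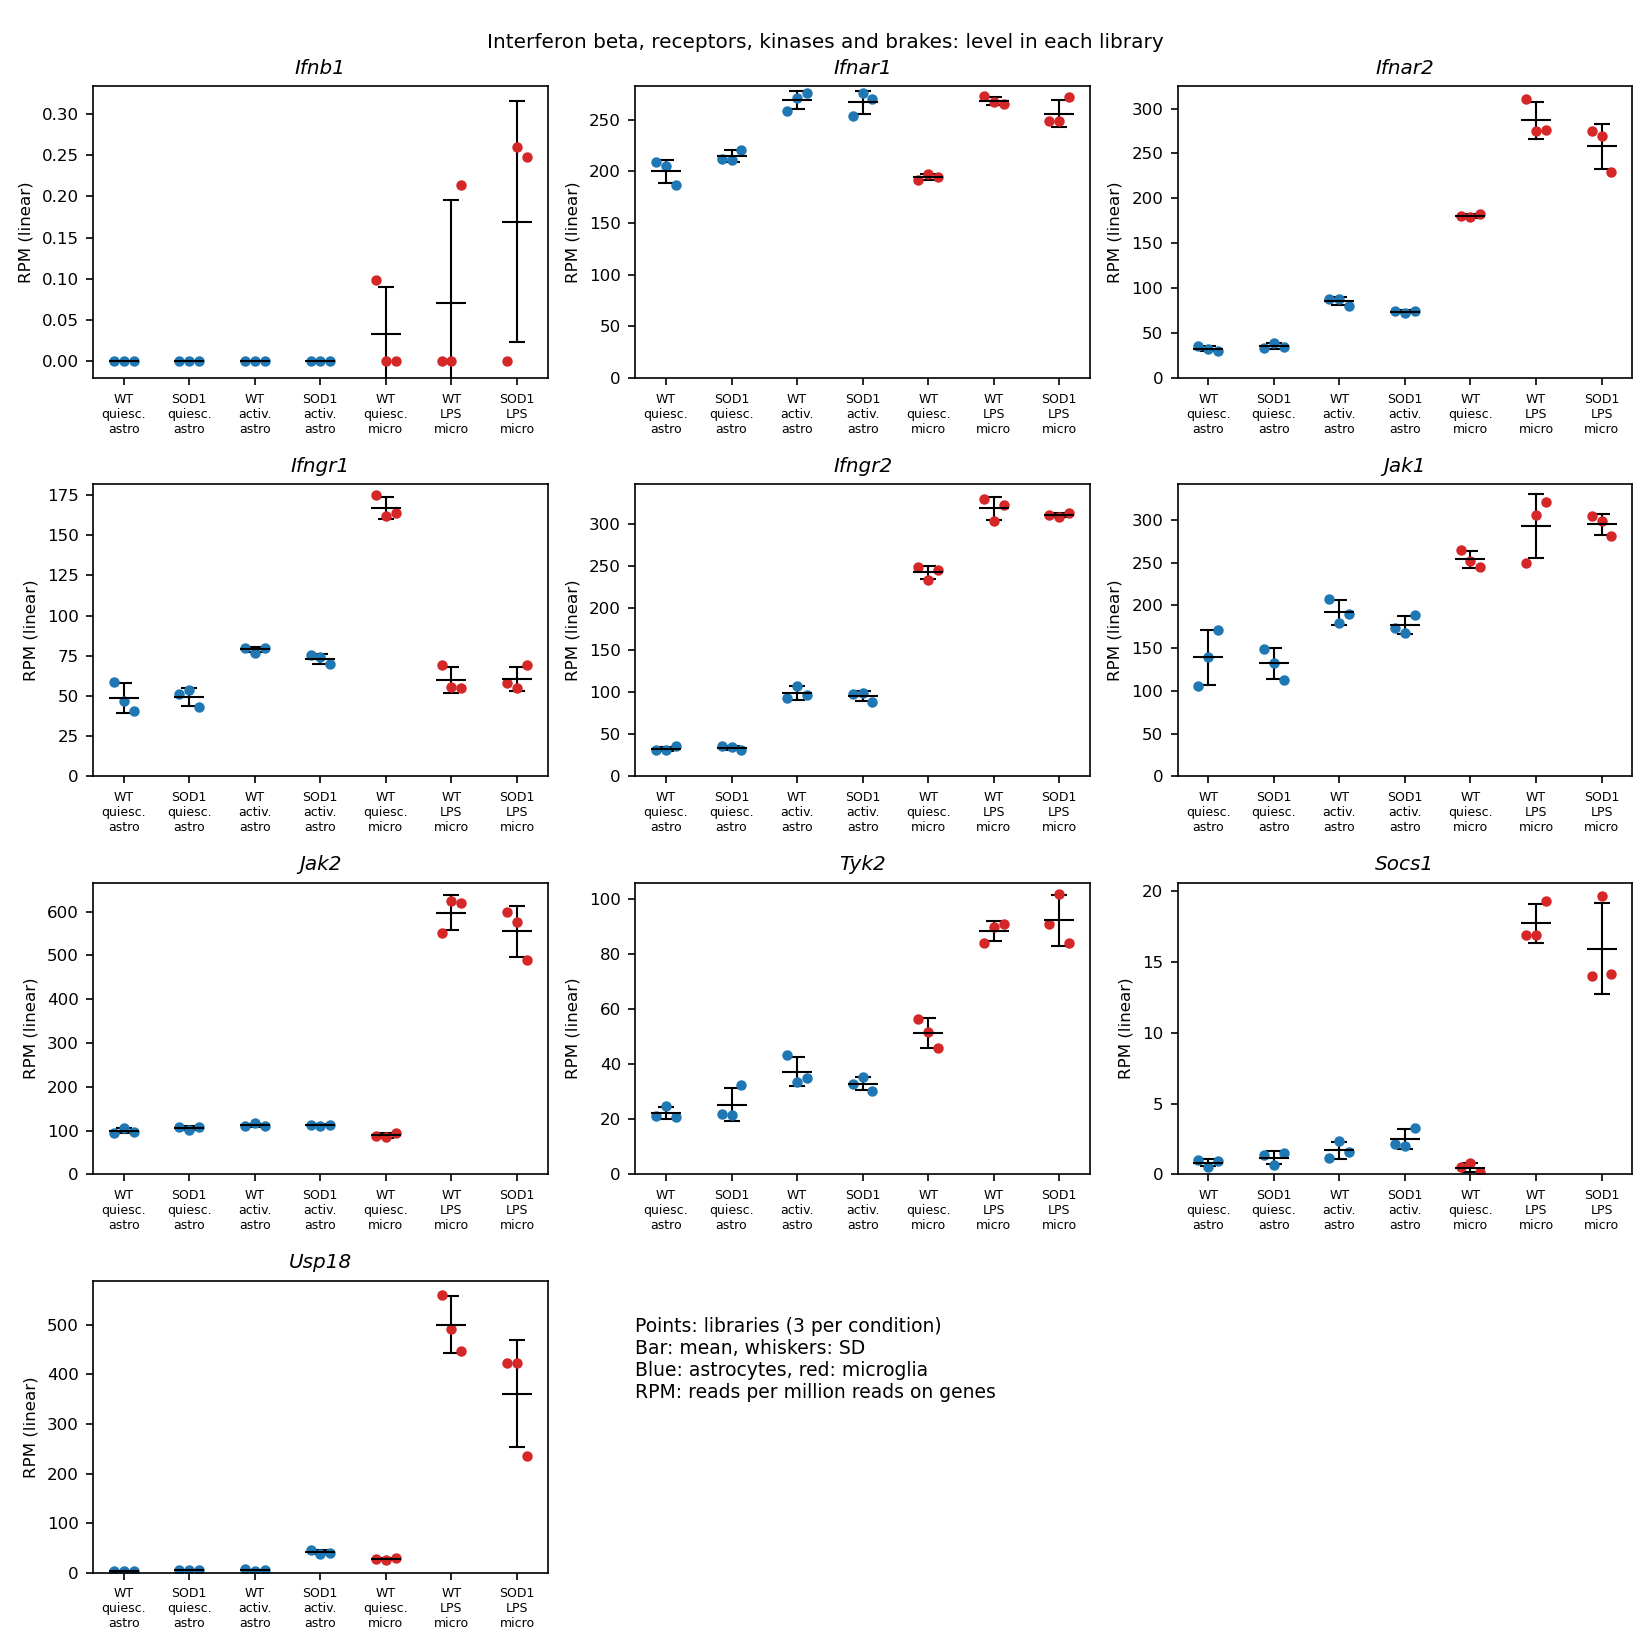
Level of each of the 10 genes in RPM in every library of the 7 conditions, with points for libraries and bars for mean ± SD of 3. Ifnb1 stays at 0 to 0.259 RPM, while Usp18 runs from 3.02 RPM in WT quiescent astrocytes to 561 RPM in WT LPS microglia.

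Unlike the ligand, both receptors and all kinases were present in every library of both cell types. Levels were not tested between cell types here but compared by overlap of libraries, and they depend on the scale: TMM scaling multiplied astrocyte levels by 0.781 to 0.817 and microglia levels by 1.20 to 1.42. Of the 8 members with enough reads in quiescent WT cells, 6 were higher in all 3 microglia libraries than in all 3 astrocyte libraries by RPM, and all 8 were with TMM scaling. Among all genes with enough reads, 25.5% were higher in this way by RPM and 40.6% with TMM scaling, and 84.7% and 81.2% did not overlap in either direction. In activated WT cells it was 7 of 9 members by RPM and 9 with TMM scaling, where of all genes 22.7% and 40.8% were higher in microglia and 87.4% and 84.2% did not overlap. In activated SOD1G93A cells it was also 7 of 9 by RPM and 9 with TMM scaling, where of all genes 24.1% and 43.9% were higher and 85.6% and 83.6% did not overlap. Socs1 is among the 7 and the 9 in both activated genotypes. It was too scarce to test in astrocytes and had enough reads through the LPS libraries, which favoured a higher level in microglia. Less RNA per cell and fewer cells of a type cannot be told apart in bulk samples.

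Ifnar1, the chain that carries Tyk2, was the receptor gene with the most even level. From high to low it stood at 269 ± 8.81 RPM in WT activated astrocytes, 268 ± 4.07 in WT LPS microglia, 267 ± 11.2 in SOD1G93A activated astrocytes, 256 ± 13.3 in SOD1G93A LPS microglia, 215 ± 5.88 in SOD1G93A quiescent astrocytes, 200.2 ± 11.3 in WT quiescent astrocytes and 195 ± 3.01 in WT quiescent microglia, an order that with TMM scaling has all 3 microglia conditions above the astrocytes. The 4 activated conditions overlapped in turn and lay above the quiescent ones, of which WT astrocytes and microglia overlapped, but with TMM scaling WT microglia were higher, 1.50-fold when quiescent and 1.74-fold when activated, and 1.06-fold when activated if the 10 most abundant genes are left out. Ifnar2, the chain that carries Jak1, separated the cell types on every scale. It stood at 287 ± 20.4 RPM in WT LPS, 258 ± 24.9 in SOD1G93A LPS and 180.4 ± 1.95 in WT quiescent microglia, then 85.4 ± 4.49 in WT activated, 73.7 ± 1.50 in SOD1G93A activated, 35.7 ± 2.97 in SOD1G93A quiescent and 32.7 ± 2.82 in WT quiescent astrocytes. Neighbours overlapped within the LPS pair and within the quiescent astrocyte pair alone. WT quiescent microglia held 5.52 times the Ifnar2 level of WT quiescent astrocytes by RPM and 8.55 times with TMM scaling.

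The chains of the interferon gamma receptor parted ways. Ifngr1, the ligand-binding chain, was highest in WT quiescent microglia at 167 ± 6.96 RPM, 3.43 times WT quiescent astrocytes (5.34 with TMM scaling). It followed at 78.9 ± 1.65 in WT activated and 73.0 ± 2.87 in SOD1G93A activated astrocytes, 60.6 ± 7.43 in SOD1G93A LPS and 60.0 ± 8.19 in WT LPS microglia, and 49.3 ± 5.70 in SOD1G93A and 48.6 ± 9.15 in WT quiescent astrocytes, with LPS microglia above activated astrocytes when scaled by TMM. For Ifngr1 the LPS pair and the quiescent astrocyte pair overlapped. Activated WT astrocytes thus lay above LPS microglia for Ifngr1 by RPM, at a microglia to astrocyte ratio of 0.761, but with TMM scaling LPS microglia lay above them, at 1.32. In SOD1G93A cells this ratio was 0.830 by RPM, 1.43 with TMM scaling, and the libraries overlapped without the 10 most abundant genes. Ifngr2, the signalling chain, was highest in microglia on every scale, at 319 ± 13.5 RPM in WT LPS, 311 ± 2.17 in SOD1G93A LPS and 243 ± 7.86 in WT quiescent microglia. Astrocytes held 99.2 ± 8.08 RPM when WT activated, 95.4 ± 5.96 when SOD1G93A activated, 33.9 ± 2.59 when SOD1G93A quiescent and 32.5 ± 2.55 when WT quiescent. For Ifngr2 each of these like pairs overlapped, and quiescent microglia overlapped with none.

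Among the kinases, Jak1, which serves both receptors, varied least. It stood at 295 ± 12.3 RPM in SOD1G93A LPS, 293 ± 37.6 in WT LPS and 254 ± 10.1 in WT quiescent microglia, all overlapping in turn. Astrocytes followed without overlap at 192 ± 14.7 in WT activated, 177 ± 10.6 in SOD1G93A activated, 139 ± 32.7 in WT quiescent and 132 ± 17.9 in SOD1G93A quiescent cultures, again overlapping in turn. Jak2, the kinase of Ifngr2, was set apart by LPS. It reached 598 ± 40.8 RPM in WT LPS and 555 ± 57.7 in SOD1G93A LPS microglia, which overlapped. All other conditions lay near each other, at 113 ± 1.17 in SOD1G93A activated, 112 ± 4.31 in WT activated, 106 ± 4.23 in SOD1G93A quiescent and 99.8 ± 6.05 in WT quiescent astrocytes and 89.6 ± 5.26 in WT quiescent microglia, which with TMM scaling lay above all astrocytes, 1.39-fold above WT quiescent ones. Of these neighbours WT activated and SOD1G93A quiescent astrocytes alone did not overlap. Tyk2, the kinase of Ifnar1, stood at 92.4 ± 9.17 RPM in SOD1G93A LPS, 88.4 ± 3.57 in WT LPS and 51.4 ± 5.33 in WT quiescent microglia, and at 37.4 ± 5.28 in WT activated, 33.0 ± 2.47 in SOD1G93A activated, 25.4 ± 6.13 in SOD1G93A quiescent and 22.4 ± 2.25 in WT quiescent astrocytes. The LPS pair overlapped for Tyk2, astrocyte neighbours all overlapped, and quiescent microglia overlapped with neither side.

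The brakes spanned the widest range. Socs1, which binds and blocks the kinases, stood at 17.7 ± 1.38 RPM in WT LPS and 15.9 ± 3.21 in SOD1G93A LPS microglia, which overlapped. It was under 4 RPM elsewhere, at 2.49 ± 0.687 in SOD1G93A activated, 1.71 ± 0.600 in WT activated, 1.19 ± 0.441 in SOD1G93A quiescent and 0.838 ± 0.250 in WT quiescent astrocytes and 0.473 ± 0.320 in WT quiescent microglia, with all of these neighbours overlapping. Usp18, a protease that strips Isg15 from proteins and sits on Ifnar2, ran from 500.1 ± 57.4 RPM in WT LPS and 361 ± 108 in SOD1G93A LPS microglia to 41.5 ± 4.33 in SOD1G93A activated astrocytes, 28.1 ± 2.09 in WT quiescent microglia, 5.16 ± 1.19 in WT activated, 4.99 ± 0.452 in SOD1G93A quiescent and 3.35 ± 0.289 in WT quiescent astrocytes, and with TMM scaling WT quiescent microglia (34.3) stood level with SOD1G93A activated astrocytes (33.9). WT activated and SOD1G93A quiescent astrocytes were the only neighbours that overlapped for Usp18. LPS microglia held 96.9 times the Usp18 level of activated astrocytes in WT and 8.69 times in SOD1G93A cells by RPM, and 169 and 15.1 times with TMM scaling.

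Per kilobase of exon the order of the members differed by cell type, with exon lengths from GENCODE M21, which may differ from the gene models that were counted. In WT quiescent astrocytes the highest level per kilobase was that of Ifnar1, at 33.7 RPM per kilobase, followed by Jak2 at 19.8, Jak1 at 19.2 and Ifngr1 at 17.1, which overlapped, with Ifnar2 at 9.81 and Ifngr2 at 8.63 RPM per kilobase overlapping below them. In quiescent microglia the leading genes were Ifngr2 at 64.5, Ifngr1 at 58.6 and Ifnar2 at 54.2 RPM per kilobase, above Jak1 at 35.1 and Ifnar1 at 32.8. By RPM alone Ifnar1 (195) lay above Ifnar2 (180.4) in quiescent microglia, so the order of these chains there rests on the lengths. In WT LPS microglia the brake Usp18 stood first at 179 RPM per kilobase, ahead of Jak2 at 119 and of Ifnar2 at 86.2 and Ifngr2 at 84.7, which overlapped. By RPM alone Jak2 (598) lay above Usp18 (500.1) in WT LPS microglia, and Jak1 (254) above Ifngr2 (243) in quiescent microglia. These orders rest on the lengths too. In activated astrocytes Usp18 stood at 14.9 RPM per kilobase in SOD1G93A and 1.85 in WT cells.

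Activation of WT astrocytes by IL-1α, TNFα and C1q raised Ifnar2 and Ifngr2 by more than 2-fold. Ifnar2 stood at 35.7, 32.2 and 30.1 RPM in quiescent and 88.2, 87.8 and 80.2 RPM in activated libraries. All activated libraries lay above all quiescent ones. The rise was 1.41 on the log2 scale (SE 0.10, limma adjusted p = 9.0e-07, n = 3 each). Ifngr2 stood at 30.8, 31.3 and 35.4 RPM in quiescent and 92.9, 108 and 96.4 RPM in activated libraries, again with no overlap. Its log2 rise was 1.63 (SE 0.11, limma adjusted p = 7.2e-07). These were the 2 called of 8 genes tested, and DESeq2 and edgeR called the same 2. They were also called without each library in turn, at 1.37 to 1.46 for Ifnar2 and 1.57 to 1.71 for Ifngr2. Of all genes 11.5% were called, 6.0% as higher and 5.54% as lower. The members were chosen with results known, so shares above the background describe them and test nothing. With an adjusted p under 0.05 at any fold, 6 of the 8 passed, where 38.3% of all genes did, and Jak1 among the 6 ran up to 0.1 over the alternatives.

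None of the partner chains and kinases was called. Ifngr1 had a log2 difference of 0.74 (SE 0.12, limma adjusted p = 0.00056), Tyk2 of 0.75 and Jak1 of 0.52, all short of 2-fold. Ifnar1 had a log2 difference of 0.45 (limma adjusted p = 0.001) and Jak2 of 0.20. For Ifngr1 and Ifnar1 all activated libraries lay above all quiescent ones. Neither brake passed. Usp18 stood at 3.47, 3.02 and 3.56 RPM in quiescent and 6.54, 4.43 and 4.52 RPM in activated libraries. The groups did not overlap, yet the log2 difference of 0.60 (SE 0.27) had a limma adjusted p of 0.11 (range 0.032 to 0.37). Socs1, with 2, 2 and 9 reads in quiescent and 6, 16 and 9 in activated libraries, was too scarce to test.

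Around the members, genes of several lists rose, where 6.0% of all genes did. Of the 10 interferon gamma targets 5 had enough reads to test, and all 5 rose. Their median log2 change was 3.67 (3.87 without Igtp) where all genes had 0.01. Without a filter the median over all 10 was 1.21, with the same 5 called. Those too scarce to test include Cd74, H2-Aa, H2-Ab1 and Cxcl9. Gbp2, a guanylate-binding protein of cell-autonomous defence, went from 8.93, 9.62 and 13.3 RPM to 302, 283 and 300.2 RPM, without overlap, a log2 rise of 4.82 (SE 0.15, limma adjusted p = 3.6e-09). Its relative Gbp5 rose by 4.08 (SE 0.31). Of these 5, Igtp reached the filter only through the activated libraries and so had to differ, and it was not called without activated replicate 1, 2 or 3, which left 4 called. Ifng itself had 0 reads. Of the signal transducers and other receptors 4 of 9 rose (median 1.26): Irf1, a transcription factor, by 2.45, Irf9 by 1.51, and Stat3 and Il10rb. Jak3, not called, passed the filter only through the activated libraries, and the median without it was 1.01. Stat2 (0.49) had a log2 difference that was not called. Among other brakes 2 of 11 rose (median 0.15), Socs3, the feedback brake of the Stat3 pathway, by 2.16 and the phosphatase gene Ptpn2 by 1.45. With single libraries left out that median ran from 0.09 to 0.34. Without the intensity trend Socs3 was not called (limma adjusted p = 0.0012, range over alternatives 6.5e-21 to 0.0012).

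The genes that lead to interferon beta below Toll-like receptor 4 had 4 of 15 risen in activated astrocytes (median 0.48, or 0.47 without Ly96, which passed the filter only through the activated libraries), which were Nfkb1, an NF-κB subunit, by 2.30, the receptor Tlr4 by 1.38, and Cd14 and Rela. This count was 2, with Nfkb1 and Cd14 alone, without WT quiescent astrocytes replicate 2 or without WT activated astrocytes replicate 3. Tlr4 stood at 4.46, 6.60 and 7.24 RPM in quiescent and 15.6, 17.3 and 14.1 RPM in activated libraries. The groups were apart, but Tlr4 was not called without WT quiescent replicate 2 (limma adjusted p = 0.0021), nor without activated replicate 1 (0.0041), 2 (0.004) or 3 (0.0031), over a range of 4.9e-05 to 0.0041. Nor was it called without the intensity trend (limma adjusted p = 0.002). Ticam1, the adaptor that leads from Tlr4 to interferon (0.06), and the interferon regulatory factors Irf3 (-0.06) and Irf7 (0.48) were not called. Of the type I targets 4 rose and 1 fell of 15 tested (median 0.73): the RNA sensors Ddx58 by 1.93 and Ifih1 by 1.74, with Bst2 and Oasl2, while Ifit2 fell by 1.43 (SE 0.12, limma adjusted p = 3.7e-06), from 66.0, 66.8 and 74.1 RPM to 25.2, 28.2 and 21.9 RPM. All activated libraries were low for Ifit2. Ifit3b, not called, passed the filter only through the activated libraries, and the median without it was 0.49. The other calls changed as single libraries were left out: Ifih1 and Ifit2 were called without WT quiescent replicate 2, and only Ifit2 without activated replicate 1, 2 or 3, where Ddx58 had limma adjusted p-values of 0.0047, 0.002 and 0.0064 (range 3.1e-10 to 0.0081) and Ifih1 0.0067, 0.0035 and 0.0058 (range 6.5e-06 to 0.0067). Ddx58 was not called without quiescent replicate 2 either (0.0025), nor with quantile normalization (limma adjusted p = 0.001) or without the intensity trend (0.0081). Ifih1 was not called without a filter (limma adjusted p = 0.0012) or without the trend (0.0047). Without WT quiescent replicate 3, which stood apart by chi-square alone, the counts of every list were the same. The type I median was then 0.97 and that of the other brakes 0.34.

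Markers of other cells moved with activation of WT astrocytes, where 6.0% of all genes rose and 5.54% fell. Of the oligodendrocyte lineage markers 2 of 7 tested fell, Olig1 and Olig2, and the sum over the list went from 2956, 2883 and 2778 RPM to 1067, 1104 and 1043 RPM, with Olig1 the most abundant (1799 and 531) and Mog at 0 in quiescent cells. Endothelial markers summed to 8.93, 9.90 and 13.4 RPM and then 137, 148 and 153 RPM, of which Flt1, 1 of 1 tested, was 144, with Cldn5 and Cdh5 at 0 in activated cells. Pericyte and fibroblast markers went from 9.42, 11 and 17 RPM to 54.7, 50.2 and 45.2 RPM, with Dcn and Lum 2 of 4 tested and Lum the most abundant (21.5). Dcn and Lum had 3 reads or fewer in quiescent libraries and passed the filter only through the activated ones, so they had to differ. Neuronal markers went from 945, 974 and 751 RPM to 383, 437 and 436 RPM, nearly all Map2, which fell, while Tubb3 rose, in 4 tested. Of 10 astrocyte markers Hepacam and Aldoc fell, and the sums were 5662, 6075 and 7014 RPM and then 5099, 5211 and 5228 RPM. Microglia markers had 0 of 9 called by limma, with sums of 149.8, 206 and 266 RPM and then 185, 291 and 160.4 RPM. The part of these cells in the rises of Ifnar2 and Ifngr2 was not tested.

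LPS raised both brakes and Jak2 in WT microglia and lowered Ifngr1. Usp18 stood at 27.8, 26.3 and 30.4 RPM in quiescent and 561, 492 and 448 RPM in LPS libraries. All LPS libraries were far above the quiescent ones. Its log2 rise was 4.35 (SE 0.10, limma adjusted p = 2.0e-10, n = 3 each), a 20.5-fold change. Socs1 had 5, 2 and 1 reads in quiescent and 137, 86 and 90 reads in LPS libraries, without overlap. It rose by 5.09 on the log2 scale (SE 0.38, limma adjusted p = 1.0e-06), a value that ran from 3.93 to 5.66 over the alternatives. Socs1 passed the filter only through the LPS libraries, so it had to differ.

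Jak2 stood at 87.8, 85.5 and 95.5 RPM in quiescent and 551, 624 and 619.6 RPM in LPS microglia. The groups were wide apart, a log2 rise of 2.95 (SE 0.09, limma adjusted p = 1.5e-09). Ifngr1 stood at 175, 162 and 164 RPM in quiescent and 69.4, 55.3 and 55.2 RPM in LPS libraries. All LPS libraries were low, and Ifngr1 fell by 1.27 (SE 0.10, limma adjusted p = 1.6e-06). These 4 of 9 tested genes were called, 3 higher and 1 lower, and DESeq2 and edgeR called the same 4. Socs1 among them passed the filter only through the libraries where it is high, and with at least 10 in every library 3 of 8 members and 1820 of 9767 genes were called. Of all genes 20.8% were called, 10.2% as higher and 10.6% as lower. With an adjusted p under 0.05 at any fold all 9 passed, where 56.9% of all genes did, but Jak1 (0.0078 by limma) ran up to 0.11 over the alternatives, with a log2 difference down to 0.18.

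The remaining members were above their quiescent level by less than 2-fold under LPS. The log2 differences were 0.88 for Ifnar2, 0.68 for Ifnar1, 0.61 for Ifngr2 and 0.41 for Jak1, whose RPM values overlapped. Tyk2 stood at 56.6, 51.8 and 46.0 RPM in quiescent and 84.3, 90.0 and 90.9 RPM in LPS libraries. The groups were apart, and its log2 difference of 1.00 (SE 0.10, limma adjusted p = 1.4e-05) lay just under 2-fold. Tyk2 was called without WT quiescent microglia replicate 1 (1.06), without replicate 2 (1.02), without WT LPS replicate 1 (1.05), the library that stood apart, and with a pseudocount of 0.5.

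Every type I target was induced by LPS: 20 of 20 tested rose, where 10.2% of all genes did, with a median log2 change of 4.93 against 0.00 for all genes. Oasl1, an inhibitor of interferon synthesis, went from 6.69, 6.67 and 6.92 RPM to 727, 708 and 638 RPM, with no overlap and a log2 rise of 6.85 (SE 0.09, limma adjusted p = 2.2e-11). Rsad2, an antiviral enzyme, rose by 6.24 (SE 0.11). Of the interferon gamma targets 7 of 9 rose (median 3.74), led by Gbp5 at 6.58 and Gbp2 at 6.21, and Cxcl9 among them passed the filter only through the LPS libraries (median without it 3.01). Of the signal transducers and other receptors 4 of 9 rose (median 0.99). Among them Stat2 rose by 3.07, Irf1 by 2.42 and Irf9 by 1.15, which was 0.98 with quantile normalization and then not called (limma adjusted p = 4.1e-06, range 1.2e-20 to 8.5e-05).

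Of the genes that lead to interferon beta 7 of 15 rose in LPS microglia (median 0.81), where 10.2% of all genes rose, though Ifnb1 stayed at 1 read. They were the kinase genes Ikbke and Tbk1, the regulatory factor Irf7, Cd14, Ly96, Nfkb1 and Ticam2. Irf7 stood at 67.0, 58.8 and 62.1 RPM in quiescent and 2723, 2388 and 2292 RPM in LPS libraries, far apart, a log2 rise of 5.51 (SE 0.08, limma adjusted p = 2.2e-11). Ikbke rose by 6.61 (SE 0.75) from 19, 0 and 14 reads to 729, 380 and 349 reads and passed the filter only through the LPS libraries (median without it 0.61). Tlr4 (-0.15), Ticam1 (0.25) and Irf3 (0.25) were not called. Other brakes rose in 3 of 11 (median 0.34), the cytokine-induced inhibitors Cish by 5.95 and Socs3 by 5.92 and the phosphatase gene Ptpn2, and Cish also passed only through the LPS libraries (median without it 0.30).

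Cell type markers moved with LPS too, where 10.2% of all genes rose and 10.6% fell. Of 10 microglia markers 7 fell, among them Cx3cr1, P2ry12 and Tmem119, and the sums went from 10139, 10551 and 10035 RPM to 3218, 3037 and 3106 RPM, with Csf1r the most abundant at first (2574) and Itgam after LPS (766) and none at 0. Monocyte and neutrophil markers rose in 2 of 2 tested, Ly6c2 and Ccr2, from sums of 2.26, 2.35 and 4.47 RPM to 14, 16.7 and 13.5 RPM, with Ccr2 the most abundant (7.39) and Plac8 at 0. Ly6c2 had 3 reads or fewer in quiescent libraries and passed the filter only through the LPS libraries, so it had to differ. Oligodendrocyte lineage markers fell in 2 of 4 tested, Cspg4 and Mbp, from 1317, 1343 and 1359 RPM to 105, 103 and 110.0 RPM, mostly Cspg4 (1229 and 65.6). Endothelial markers had Pecam1 and Kdr risen and Flt1 fallen, all 3 tested, with sums of 67.0, 75.3 and 75.1 RPM and then 45.6, 55.9 and 50.7 RPM, Kdr the most abundant (31.1) and Cldn5 and Tek at 0. Pericyte and fibroblast markers had Dcn risen of 4 tested, with sums of 11.7, 5.49 and 5.19 RPM and then 19.3, 18.6 and 16.9 RPM, led by Dcn (7.58). Dcn too had 3 reads or fewer in quiescent libraries and passed only through the LPS libraries. Astrocyte markers had Slc1a2 and Gja1 risen of 10, with sums of 188, 166 and 184 RPM and then 219.9, 169 and 251 RPM, led by Gfap (48.1). The part of other cells in the changes of Usp18, Socs1, Jak2 and Ifngr1 was not tested.

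**Figure D2:**
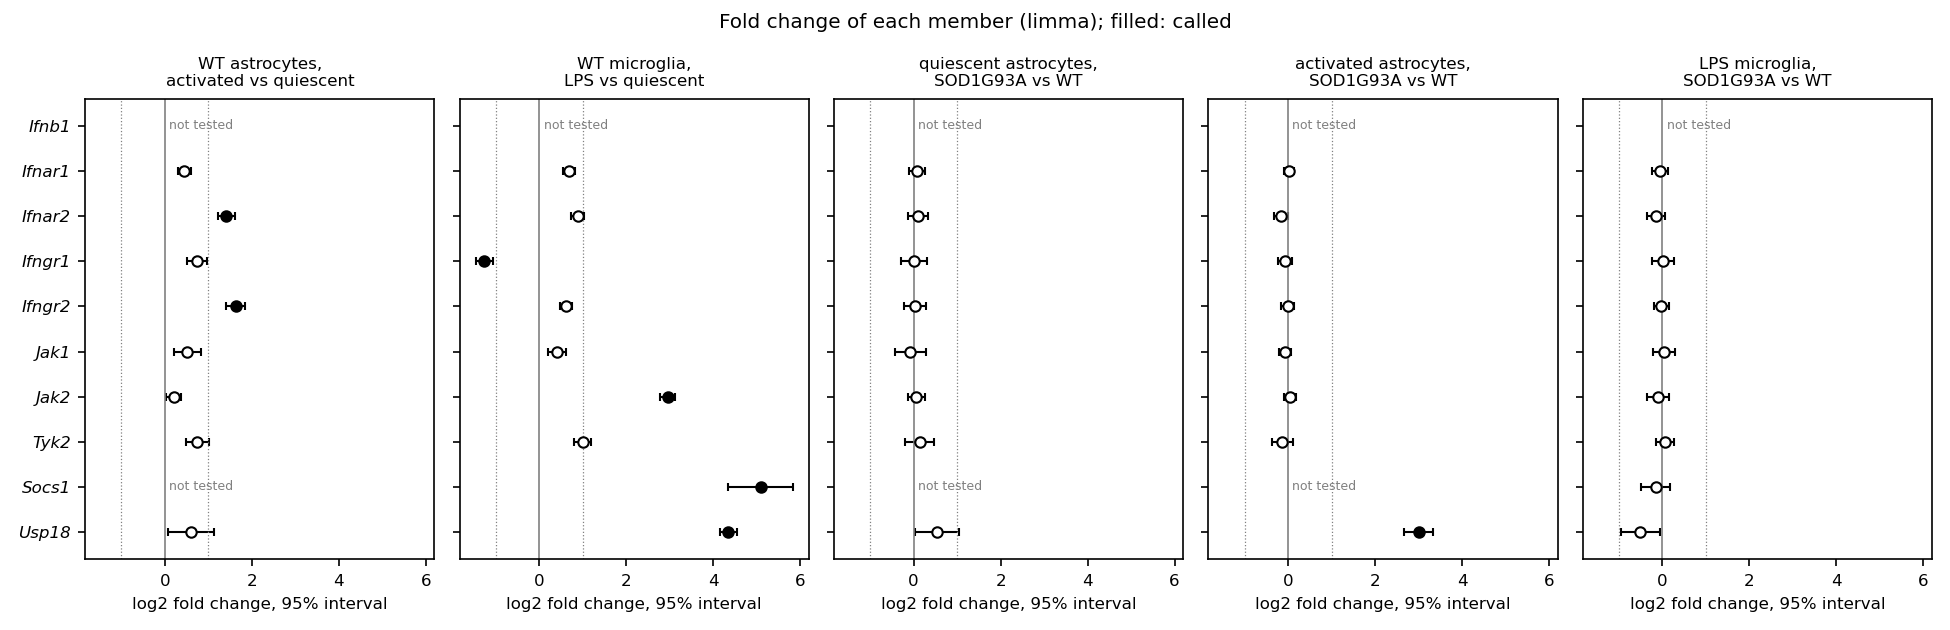
Log2 fold change of each gene tested in the 5 comparisons, with bars of approximate 95% intervals from the SE of limma (n = 3 against 3) and filled points where called. Usp18 lies at 4.35 for LPS in WT microglia, at 3.01 for SOD1G93A against WT in activated astrocytes and at -0.51 for SOD1G93A against WT in LPS microglia (-0.21 without SOD1G93A replicate 3).

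The responses of the cell types differed for 5 of 9 members when the difference itself was fitted, a test chosen after seeing the data. Of all genes 14.9% were called in it, 8.54% as higher and 6.38% as lower, and 6 members and 40.2% of all genes had an adjusted p under 0.05. The astrocyte response minus the microglia response was 2.00 for Ifngr1 (SE 0.16, limma adjusted p = 2.3e-07) on the log2 scale, since Ifngr1 was higher after activation in astrocytes and fell in microglia. For Jak2 it was -2.76 (SE 0.12, limma adjusted p = 8.0e-10), for Socs1 -4.21 (SE 0.56) and for Usp18 -3.76 (SE 0.22), all larger rises in microglia. Socs1 passed the filter only through the LPS libraries and was too scarce to test in astrocytes, so the filter favoured a difference in this direction. Ifngr2 had a larger rise in astrocytes by 1.02 (SE 0.12, limma adjusted p = 1.4e-05), which was 0.96 without WT quiescent astrocytes replicate 1, 0.99 without replicate 2 and 0.96 without WT activated astrocytes replicate 2, and then not called, nor was it called with a pseudocount of 5 (0.995). Ifnar2 differed by 0.52 (limma adjusted p = 0.0018, range 0.00019 to 0.007) and was not called. The stimuli differ between the cell types, so cell type and agent cannot be told apart in these differences.

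At rest the SOD1G93A transgene left no member called in astrocytes. Of 8 tested, limma called 0, with 0 at an unadjusted p under 0.05, and DESeq2 and edgeR called 0. Of all genes limma called 0% and gave 0.0570% an adjusted p under 0.05, edgeR called 0 and DESeq2 called 5. The WT libraries here are those of the activation comparison above. Usp18 came nearest, at 3.47, 3.02 and 3.56 RPM in WT and 5.46, 4.96 and 4.56 RPM in SOD1G93A libraries. The genotypes did not overlap, but its log2 difference of 0.53 (SE 0.26) had a limma adjusted p of 0.61 and was 0.45 to 0.59 with single libraries left out. The other 7 had log2 differences from -0.08 for Jak1 to 0.14 for Tyk2.

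No list had a gene called between quiescent genotypes by limma. The medians were 0.70 over 14 type I targets, 0.47 over 5 interferon gamma targets, 0.16 over 8 signal transducers and other receptors, 0.13 over 14 genes that lead to interferon beta and 0.07 over 11 other brakes, against 0.00 for all genes. Igtp passed the filter through the SOD1G93A libraries alone. The type I median was 0.42 without WT replicate 1 and the interferon gamma median 0.18, and they were 0.89 and 0.63 without WT replicate 3 and 0.60 and 0.32 without SOD1G93A replicate 1, which stood apart by chi-square alone, with 0 called either way. Without Igtp the interferon gamma median was 0.35. The signal transducer median was 0.03 without WT replicate 1, 0.24 without WT replicate 3 and 0.07 without SOD1G93A replicate 1. For the other brakes the median was -0.02 without WT replicate 3 and -0.04 without SOD1G93A replicate 1. Irf7 stood at 8.43, 13.7 and 14.9 RPM in WT and 21, 18.3 and 18.2 RPM in SOD1G93A libraries. These did not overlap, with a log2 difference of 0.64 and a limma adjusted p of 0.48. Microglia markers summed to 149.8, 206 and 266 RPM in WT and 334, 353 and 238 RPM in SOD1G93A quiescent astrocytes, 0 of 9 called with a median of 0.58, led by Csf1r (48.4 and 70.1) and none at 0. Sums of some other marker lists did not overlap between genotypes, with 0 called. The share of all genes without overlap is not given here, and an exact test of 3 against 3 cannot go below p = 0.1. Endothelial markers summed to 8.93, 9.90 and 13.4 RPM in WT and 6.61, 7.45 and 6.99 RPM in SOD1G93A libraries, mostly Flt1, the 1 tested (-0.70), with Cldn5 at 0. Pericyte and fibroblast markers summed to 9.42, 11 and 17 RPM and then 9.34, 8.27 and 8.5 RPM, led by Pdgfrb, with a median of -0.50 over 2. Oligodendrocyte lineage markers summed to 2956, 2883 and 2778 RPM and then 3421, 3177 and 3226 RPM, led by Olig1, with a median of 0.14 over 7. Monocyte and neutrophil markers summed to 0 to 0.108 RPM and then 0.138 to 0.304 RPM, with all 5 measured genes at 3 reads or fewer and none tested. The part of any of these cells in the list medians was not tested.

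Once activated, SOD1G93A astrocytes held far more Usp18 than activated WT astrocytes. The libraries stood at 6.54, 4.43 and 4.52 RPM in WT and 46.2, 37.7 and 40.7 RPM in SOD1G93A cells. All SOD1G93A libraries were high and the genotypes did not overlap. The log2 rise was 3.01 (SE 0.17, limma adjusted p = 2.3e-10, n = 3 each), 8.05-fold. Usp18 was the 1 gene called of 8 tested, by limma, DESeq2 and edgeR, where 0.645% of all genes were called, 0.521% as higher and 0.124% as lower. At an adjusted p under 0.05 it was again Usp18 alone, against 7.27% of all genes. It was called without each library in turn, at 2.91 to 3.18. Without the intensity trend it was not called (limma adjusted p = 0.0032, range over alternatives 7.3e-39 to 0.0032), and that setting called 1 of 12098 genes.

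The receptors and kinases did not share this change. Ifnar2 stood at 88.2, 87.8 and 80.2 RPM in WT and 75.0, 72.0 and 74.0 RPM in SOD1G93A activated astrocytes. The SOD1G93A libraries were all below, with a log2 difference of -0.17 (SE 0.08) and a limma adjusted p of 0.21. The other 6 tested ran from -0.13 for Tyk2 to 0.05 for Jak2. Socs1, with 6, 16 and 9 reads in WT and 8, 8 and 7 in SOD1G93A libraries, was not tested. The WT libraries are those of the activation comparison.

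Interferon targets rose with Usp18 in activated SOD1G93A astrocytes, where 0.521% of all genes were called as higher. Of the type I targets 12 of 19 rose and 0 fell, with a median of 1.65 against 0.00 for all genes. Ifi44, an interferon-induced gene, went from 2.77, 2.51 and 4.0 RPM to 72.5, 51.4 and 38.9 RPM, without overlap, a log2 rise of 4.05 (SE 0.22, limma adjusted p = 8.1e-11). Mx2, an antiviral GTPase gene, rose by 3.01 (SE 0.41) but passed the filter only through the SOD1G93A libraries, and it was not called without SOD1G93A activated replicate 1 (2.72, limma adjusted p = 0.0013) or 2 (3.13, 0.0011), over a range of 7.4e-09 to 0.044. Isg20 and Mx1, not called, passed the filter in the same way, and the median without these 3 was 1.71. Of the interferon gamma targets 3 of 5 tested rose (median 1.66), Igtp, an immunity-related GTPase gene, by 1.76, the chemokine Cxcl10 by 1.71, and Irgm1. Without a filter the median over all 10 of that list was 0.32, with the same 3 called. Cxcl10 is known to answer type I interferon and TNF as well as interferon gamma. These counts, like that of Usp18, were 0 with limma without a trend.

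Transcription factors of the type I pathway rose as well. Irf9 stood at 27.1, 25.1 and 24.5 RPM in WT and 73.4, 61.8 and 69.8 RPM in SOD1G93A activated astrocytes. The genotypes were wide apart, a log2 rise of 1.45 (SE 0.10, limma adjusted p = 4.1e-09). Stat2 rose by 1.02 (SE 0.15). Of the signal transducers and other receptors 3 of 9 rose, with a median of -0.01. Stat2 was not called without WT activated replicate 3 (1.00, limma adjusted p = 0.0013), without SOD1G93A activated replicate 1 (0.77) or 2 (1.11, 0.0011), or by DESeq2, over a range of 1.6e-10 to 0.079. Of the 14 genes that lead to interferon beta Irf7 alone was called (median -0.05). It stood at 13.5, 22.3 and 15 RPM in WT and 52.9, 33.1 and 34.2 RPM in SOD1G93A libraries, all higher, a log2 rise of 1.27 (SE 0.18, limma adjusted p = 6.5e-05). Tlr4 (0.68, limma adjusted p = 0.0032), Ticam1 (0.13) and Irf3 (-0.19) were not called. Without the intensity trend neither Irf7 (limma adjusted p = 0.061, range 3.4e-09 to 0.061) nor Irf9 (0.0034, range 3.2e-23 to 0.0034) was called. Of 11 other brakes 0 were called by limma (median -0.12, or -0.15 without Socs2, which passed the filter through 1 genotype alone).

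Markers of microglia did not move with Usp18 in this comparison. They summed to 185, 291 and 160.4 RPM in WT and 222, 158 and 167 RPM in SOD1G93A activated astrocytes. The genotypes overlapped, 0 of 9 tested were called by limma and the median log2 difference was -0.14, with Csf1r the most abundant in WT cells (49.3) and none at 0. The sums were 1.80%, 2.84% and 1.57% of the WT quiescent microglia level in WT and 2.17%, 1.54% and 1.63% in SOD1G93A cells. WT LPS microglia themselves held 31.4%, 29.7% and 30.3% of that level. Set against microglia in that state, the shares in activated astrocytes would be larger. Monocyte and neutrophil markers summed to 0, 0 and 0 RPM in WT and 0.806, 1.02 and 0 RPM in SOD1G93A libraries, with no gene tested. Pericyte and fibroblast markers summed to 54.7, 50.2 and 45.2 RPM in WT and 34.1, 38.7 and 37 RPM in SOD1G93A libraries, lower without overlap, with 0 of 4 called, a median of -0.14, Lum the most abundant (21.5 and 15.4) and none at 0. Endothelial markers went the same way, at 137, 148 and 153 RPM and then 118, 117 and 111 RPM, nearly all Flt1 (144 and 113), which was not called (-0.30), with Cldn5 and Cdh5 at 0. The share of all genes without overlap is not given here. The part of any of these cells, microglia included, in the Usp18 result was not tested.

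**Figure D3:**
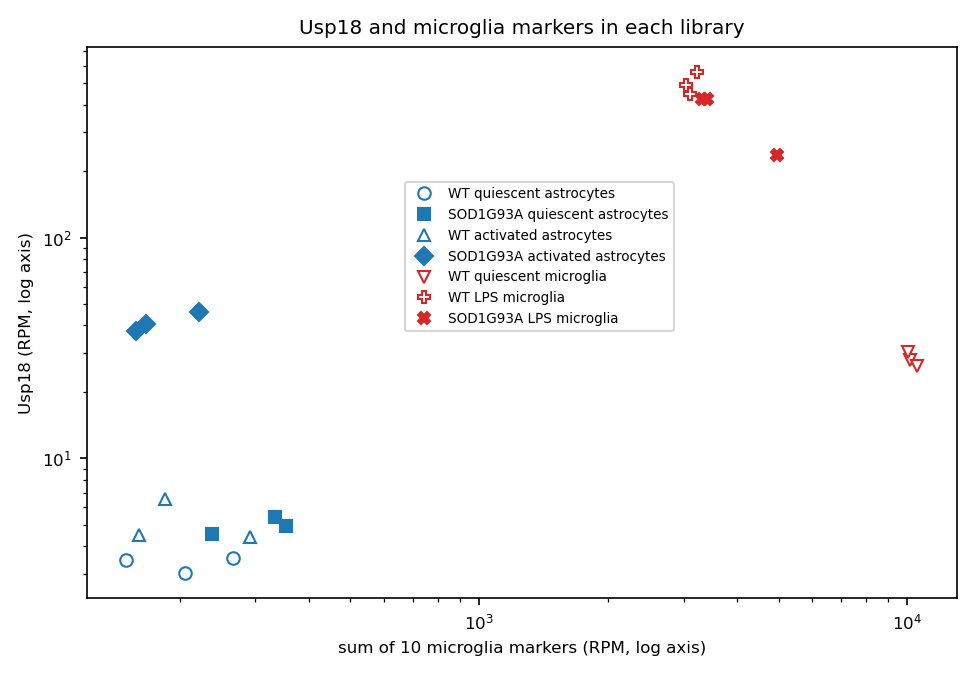
Usp18 against the sum of 10 microglia markers, both in RPM on log axes, with 1 point per library. Activated SOD1G93A astrocytes lie at 37.7 to 46.2 RPM of Usp18 with marker sums of 158 to 222 RPM, inside the range of the other astrocytes.

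In microglia under LPS no member was called between genotypes. Of 9 tested limma called 0, with 0 at an unadjusted p under 0.05 and 0 by DESeq2 and edgeR. Of all genes limma called 0% and gave 0.00936% an adjusted p under 0.05, edgeR called 0 and DESeq2 called 3. Usp18 stood at 561, 492 and 448 RPM in WT and 424, 423 and 236 RPM in SOD1G93A LPS microglia. The SOD1G93A libraries were all lower, the lowest being replicate 3, which stood apart. The log2 difference of -0.51 (SE 0.23) had a limma adjusted p of 0.58 and was -0.21 without that library. Socs1 had a difference of -0.16, and the other 7 ran from -0.15 for Ifnar2 to 0.06 for Tyk2. The WT libraries are those of the LPS comparison above.

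Nor was any gene of the lists called by limma between LPS genotypes. All 20 type I targets had negative log2 differences, with a median of -0.69 where all genes had 0.01. The median was -0.18 without SOD1G93A LPS microglia replicate 3, -0.63 without WT LPS microglia replicate 1 and -0.18 without both, an alternative chosen after seeing the data. Medians were -0.47 for 9 interferon gamma targets (-0.07 without SOD1G93A replicate 3), -0.21 for 9 signal transducers and other receptors, -0.08 for 11 other brakes and -0.04 for 15 genes that lead to interferon beta. Stat2 (-0.54), Irf9 (-0.29) and Irf7 (-0.47) had log2 differences that were not called, and neither were Tlr4 (0.22), Ticam1 (0.14) and Irf3 (-0.06). In SOD1G93A LPS libraries Stat2 stood at 543, 534 and 296 RPM, Irf9 at 137, 144 and 108 and Irf7 at 2264, 2229 and 1089. The last of each is replicate 3, which stood apart and was the lowest of all LPS libraries for these genes. Microglia markers summed to 3218, 3037 and 3106 RPM in WT and 3394, 3321 and 4957 RPM in SOD1G93A LPS microglia, with 0 of 10 called, a median of 0.36, Csf1r the most abundant in SOD1G93A cells (981) and the high value in the library that stood apart. Monocyte and neutrophil markers summed to 14, 16.7 and 13.5 RPM in WT and 11.3, 10.4 and 8.41 RPM in SOD1G93A libraries, led by Ccr2, with a median of -0.70 over 3 tested. Pericyte and fibroblast markers summed to 19.3, 18.6 and 16.9 RPM and then 13.4, 15 and 10.6 RPM, led by Dcn in WT and Pdgfrb in SOD1G93A cells, with a median of -0.74 over 3. Oligodendrocyte lineage markers summed to 105, 103 and 110.0 RPM and then 149, 152 and 248 RPM, led by Cspg4, with a median of -0.01 over 4. These lists and the microglia markers did not overlap between genotypes, and 0 were called. The share of all genes without overlap is not given here, and the part of any of these cells was not tested.

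The genotype effect on Usp18 differed between activated astrocytes and LPS microglia. Fitted as a difference, a test chosen after seeing the data, it was 3.52 on the log2 scale (SE 0.30, limma adjusted p = 6.4e-05), and Usp18 was the 1 member called of 9, where 0.134% of all genes were, 0.126% as higher and 0.00787% as lower, with 0.724% at an adjusted p under 0.05. Without a trend it was not called (limma adjusted p = 0.0031, range 6.0e-06 to 0.0031). Between activated and quiescent astrocytes the genotype effect on Usp18 differed by 2.48 (SE 0.29), with a limma adjusted p of 0.0018 over a range of 0.00061 to 0.012. That is not called: limma called 0 of 8 members and 0% of the 12562 genes tested, with 1 member at an unadjusted p under 0.05, and DESeq2 and edgeR were not run on differences. Usp18 and 0.215% of all genes had an adjusted p under 0.05. Without WT quiescent astrocytes replicate 1 Usp18 was called (2.47, limma adjusted p = 0.0008), and so it was with a pseudocount of 5 (2.36, limma adjusted p = 0.00061).

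**Figure D4:**
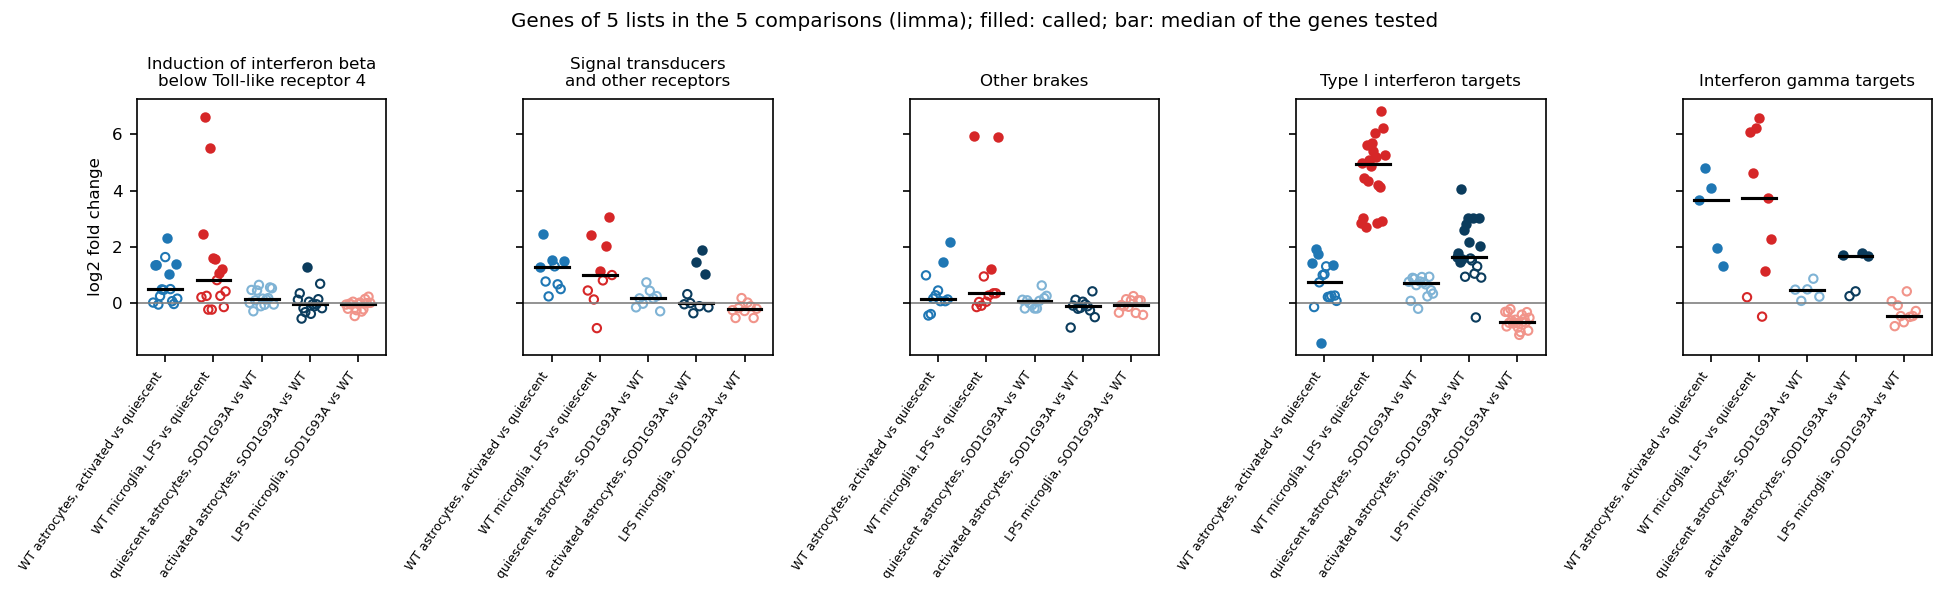
Log2 fold changes of the genes of 5 lists in the 5 comparisons, with a point per gene, filled where called, and a bar at the median. Type I interferon targets have medians of 0.73 (0.49 without Ifit3b, which passed the filter through the activated libraries alone) and 4.93 for activation of astrocytes and microglia, and 0.70, 1.65 and -0.69 for SOD1G93A against WT in quiescent astrocytes, activated astrocytes and LPS microglia. The 0.70 is 0.42 without WT replicate 1, and the -0.69 is -0.18 without SOD1G93A replicate 3.

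Across the 21 libraries, the genes whose pattern was most like that of a brake were taken by Pearson correlation of log2(RPM + 1) over 12535 genes, with no p, since libraries of a condition and of a cell type share their state. Usp18 was most like Ifit3 (r = 0.992), an antiviral gene of the type I list, Nlrc5 (0.991), an activator of MHC class I genes, and Tor3a (0.991). Ifit3 stood at 12.9 ± 2.43 RPM in WT and 89.2 ± 16.4 in SOD1G93A activated astrocytes and at 1061 ± 162 in WT LPS microglia. Socs1 was most like Sod2 (r = 0.978), the mitochondrial superoxide dismutase, Adprh (0.974) and the member Jak2 (0.971). Sod2 went from 77.3 ± 7.12 RPM in WT quiescent to 1225 ± 84.5 in WT LPS microglia. Ifnb1 had too few reads for such a comparison.

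Of the member receptor genes 3 lie close together, with Il10rb between Ifnar2 and Ifnar1. Ifnar2, Il10rb, Ifnar1 and Ifngr2 lie within 192841 bases of chromosome 16, at chr16:91372783-91565623 on the plus strand of GRCm38 (GENCODE M21), while Ifngr1 lies on chromosome 10. Of these neighbours, Ifnar2, Il10rb and Ifngr2 rose in activated WT astrocytes and Ifnar1 had a log2 difference of 0.45.

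The RefSeq promoters (build GRCm38.p6) of 9 of the 10 members were searched over the 250 bases before the gene start, and Usp18 was not among them. The motifs, read on both strands, were the interferon-stimulated response core TTTCNNTTT, held by 9.52% of 27025 promoters, the interferon gamma-activated site TTCNNNGAA (7.18%), an NF-κB site GGGANNTTC (3.17%) and an ATF/CRE site TGACNTCA (7.59%). Ifnb1 and Socs1, the ligand and a brake, hold the response core and are shown because Socs1 rose under LPS and Ifnb1 did not leave its floor. In Ifnb1 the core begins 140 bases before the start and an NF-κB match 116 bases before it, at chr4:88522795-88523044 on the minus strand. In Socs1 a pair of overlapping cores begins 82 and 76 bases before the start, at chr16:10785537-10785786 on the minus strand. Capitals mark these matches. The response cores lie on the opposite strand and so appear as their reverse complement, and the NF-κB match reads as spelled. Ifngr2, which rose in activated astrocytes, holds an NF-κB match 74 bases before its start, Ifnar2 an interferon gamma-activated site at 214 and Jak1 an ATF/CRE match at 101, and Ifnar1, Ifngr1, Jak2 and Tyk2 hold none of the 4 in this window. A match describes letters only.
Ifnb1: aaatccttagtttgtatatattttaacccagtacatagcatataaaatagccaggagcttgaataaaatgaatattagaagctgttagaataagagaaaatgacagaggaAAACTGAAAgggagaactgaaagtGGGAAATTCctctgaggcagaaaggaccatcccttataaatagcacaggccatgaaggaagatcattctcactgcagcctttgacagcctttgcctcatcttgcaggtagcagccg
Socs1: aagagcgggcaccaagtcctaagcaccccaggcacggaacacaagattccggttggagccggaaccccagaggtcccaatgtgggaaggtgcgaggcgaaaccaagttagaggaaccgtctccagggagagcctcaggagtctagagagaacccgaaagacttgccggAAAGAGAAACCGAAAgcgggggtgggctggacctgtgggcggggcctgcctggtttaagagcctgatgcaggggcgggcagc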

How the data were processed

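Per the labels, the authors aligned reads to mm10 with STAR, counted them with RSEM, and deposited tables of normalized counts, a signal equal to the read count divided by DESeq2's size factor for that library and comparison. Values were whole reads for 100% of entries within 0.01 reads, and those reads gave RPM and depth. The authors' own fold changes and p-values were not used. The members and lists were chosen with earlier results of these data known. Each of 5 comparisons was tested with limma 3.58.1 (intensity trend, R 4.3.3) on log2(normalized count + 1), over genes with a mean of at least 10, with Benjamini-Hochberg adjustment. The named genes are all members, up to 2 called genes with the largest rise and fall per list and comparison, and Stat2, Irf9, Tlr4, Ticam1, Irf3 and Irf7, with 3 genes of like pattern per brake, and a gene that this rule also names is not reported here. Other list genes were named after seeing their values. Positions are from GENCODE M21. Python 3.11.15, pandas 2.3.3 and SciPy 1.17.1 made the summaries. Alternatives were other pseudocounts, filters and scalings, limma without trend, DESeq2 1.42.0 and edgeR 4.0.16 on the recovered reads, a replicate block and leaving out each library. An exact test of 3 against 3 cannot go below p = 0.1, so none was run.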

Additional observations from a re-analysis of the deposited data

Results flagged for a closer look

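In differences of effects fitted with limma after seeing the data, the activation response of WT astrocytes minus that of WT microglia had an adjusted p under 0.05 for 6 of 9 members, as it had for 40.2% of all genes. On the log2 scale it was 0.52 for Ifnar2, which was not called, 2.00 for Ifngr1 and 1.02 for Ifngr2, all toward astrocytes. Ifngr2 was not called under 4 alternatives, 3 of them with a library left out and 1 with a pseudocount of 5. It was -2.76 for Jak2, -4.21 for Socs1 and -3.76 for Usp18, toward microglia. Socs1 passed the filter only through the LPS libraries, so the filter favoured a difference in this direction. The agents differ between the cell types and cannot be told apart from them.

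For Usp18 the SOD1G93A effect in activated astrocytes exceeded that in quiescent astrocytes by 2.48 and that in LPS microglia by 3.52. The 2.48 was not called (limma adjusted p = 0.0018, range 0.00061 to 0.012). The 3.52 was called, but not without a trend (limma adjusted p = 0.0031, range 6.0e-06 to 0.0031). The cause of these differences was not tested.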

How the results depend on the processing

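Of 1684 fold changes of members and named genes recomputed under an alternative, 1605 kept their direction and their side of the threshold, 37 were no longer called, 15 became called and 27 changed direction. Of 516 counts over lists 492 stayed within 1.5 times, 15 were lower and 9 higher, and 86 of 140 levels moved by more than 1 SD when the scale changed. With an adjusted p under 0.05 at any fold, 6 of 8 members passed in activated WT astrocytes, where 38.3% of all genes did, and 9 of 9 in LPS microglia, where 56.9% did. With limma without trend 0 members were called between genotypes in activated astrocytes, where Usp18 had an adjusted p of 0.0032 (range 7.3e-39 to 0.0032). The causes were not tested.

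No fold change that turned direction was called. Ifngr1 between quiescent genotypes was 0.00 with TMM rescaling, and Ifnar1 between activated genotypes -0.02 with quantile normalization. With both LPS libraries that stand apart left out, an alternative chosen after seeing the data, Jak1 was -0.05 and Irf3 0.06 between LPS genotypes, and 3 of all genes were called where none had been. Leaving out each library in turn, the log2 differences between quiescent genotypes ran from -0.10 to 0.14 for Ifngr1, -0.02 to 0.11 for Ifngr2, -0.27 to 0.10 for Jak1, -0.04 to 0.24 for Tyk2 and -0.01 to 0.24 for Irf3. Between activated genotypes they ran from 0.00 to 0.07 for Ifnar1 and -0.06 to 0.04 for Ifngr2. Between LPS genotypes they ran from -0.06 to 0.11 for Ifngr1, -0.10 to 0.10 for Jak1, -0.01 to 0.15 for Tyk2 and -0.13 to 0.01 for Irf3. For activation of WT astrocytes they ran from -0.08 to 0.14 for Ticam1 and -0.13 to 0.02 for Irf3. The cause was not tested. No value for Socs1 under LPS could be had with at least 10 counts in every library.

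With the replicate number as a replicate block the members called were 2 in activated WT astrocytes, 4 in LPS microglia, 0 between quiescent genotypes, 1 between activated genotypes and 0 between LPS genotypes, the same counts as without it. Over all genes the block moved the calls between activated genotypes from 78 to 100, and under LPS from 2263 to 2201. Genes with a limma adjusted p under 0.05 between activated genotypes went from 879 to 1250. Replicate numbers were not seen to pair the libraries. As deviations from group means over the genes tested, libraries of the same number correlated at 0.06, 0.03 and 0.02 in astrocyte activation, -0.03, 0.00 and 0.05 under LPS, -0.40, 0.06 and -0.44 between quiescent, 0.02, -0.07 and 0.05 between activated and -0.05, -0.04 and -0.02 between LPS genotypes. Depth limits what can be said of Ifnb1 and Socs1: a count of 0 in a library allows 0.259 to 1.49 RPM.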
